A study of Mus musculus with 2 samples.

Results

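The genes described here encode secreted proteins and proteins of the extracellular matrix, measured in lung tissue of Bclaf1 knockout mice against wild-type mice. Members were clones that the authors listed as up-regulated or down-regulated, that carry a gene symbol and that have a gene ontology term for the extracellular region, the extracellular space or the proteinaceous extracellular matrix. Clones that also carry a term for transcription factor activity, the cell cycle, protein kinases, mitochondria, translation or mRNA processing were left out. This gave 158 clones of 142 genes, out of 2597 listed clones with a symbol (2327 genes) and 22656 mouse clones on the array. Of the 142 genes, 22 carry the matrix term, and the other 120 are called soluble or surface members here. The label "soluble" is wider than its name: 63 of the 120 are also annotated as integral membrane proteins, among them receptors and adhesion molecules, and several others are residents of the endoplasmic reticulum (ER) or the lysosome.

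The extracellular matrix is the network of collagens, elastic fibres, adhesive glycoproteins and proteoglycans that surrounds cells. In the lung around birth it carries the walls of the forming airspaces, and basement membranes made of laminins and collagens lie beneath the epithelium and the endothelium. Secreted growth factors, their antagonists, proteases and protease inhibitors act within this network, and all of these proteins fold in the ER before they leave the cell. Bclaf1 itself encodes a nuclear protein that binds Bcl2 and takes part in mRNA processing.

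Each of 2 spotted cDNA arrays compared 1 RNA from knockout lung, labelled with Cy3, with 1 RNA from wild-type lung, labelled with Cy5. The sample titles give embryonic day 19 and the series text gives postnatal day 1, so the stage is uncertain. The labels give no strain, allele or sex, and do not say whether the numbered RNA pairs came from separate animals, so a p-value here covers the scatter between both arrays alone, and that scatter may be technical. Dye and genotype cannot be told apart, because both arrays had the same orientation, and which genotype is the numerator of the deposited log2 ratios is not stated. If Cy5 is divided by Cy3, positive ratios stand for less RNA in knockout lung. If the names of the authors' tables are followed instead, positive ratios stand for more RNA in knockout lung. Ratios are therefore given as lying on the positive side (the side of the authors' up-regulated table) or on the negative side. Whichever reading holds, it holds for all clones alike. The 1 named clone of Bclaf1 lay at 0.40 on array 1 and 0.41 on array 2, and whether it covers the deleted part of Bclaf1 is unstated.

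Gene names cover only clones that the authors had already listed from these same arrays, so the side of a member is a description and not independent evidence of a difference. The number of arrays limits the precision of every value. None of the fixed markers of alveolar type I, alveolar type II, airway or endothelial cells was among the named clones, so the tissue label could not be checked from them. Fibroblast markers were represented by Col1a2 alone (1 of 8), smooth muscle markers by Myh11 (1 of 5, mean 0.63) and heart markers by 2 of 5 genes on opposite sides, Myh6 and Tnnt2. No marker of red cells, liver, bone and cartilage, leukocytes, or lymphocytes and thymus was named.

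All 158 member clones had a value on both arrays, and 79 lay on each side by their mean, as the authors' lists had placed them. The share with a positive mean was 47.8% of named listed clones and 52% of all clones. The sign was the same on both arrays for 157 of the 158, beside 99.5% of named listed clones and 69.6% of all clones. The mean ratio was tested against 0 with limma on 22532 clones, with Benjamini-Hochberg adjustment over all of them, and 0 of the 158 had an adjusted p under 0.05, as was the case for 0% of all clones. The members' limma adjusted p ran from 0.349 to 0.496. At an unadjusted limma p under 0.05 there were 99 member clones (62.7%), beside 59.4% of the named listed clones and 13.9% of all clones. The ordinary one-sample test called 0 members after adjustment, but on 2 arrays it could hardly pass the threshold over so many clones. By size, 5 members lay past 1.5-fold on both arrays on the positive side (3.16%), where the share was 2.94% of named listed clones and 0.506% of all clones. On the negative side there were 3 such members (1.9%), beside 1.08% of named listed clones and 0.311% of all clones. These shares are close to those of the listed clones as a whole. The single arrays differed in this count, with 16 positive and 4 negative members past 1.5-fold on array 1 and 11 positive and 24 negative members on array 2.

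The 5 clones past 1.5-fold on the positive side belonged to Sel1l, Cd48, Gpc6, Slc20a2 and Tnc, and the 3 on the negative side to Pcsk1n, Col15a1 and Ptgs1. For 95 of the 158 clones the absolute ratio was larger on array 2, whose ratios were more widely spread over all clones (SD 0.430, against 0.295 on array 1). The median absolute log2 ratio of the member clones was 0.318 on array 1 and 0.363 on array 2. Thus most members differed by a small amount, and a few stood far out.

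**Figure D1:**
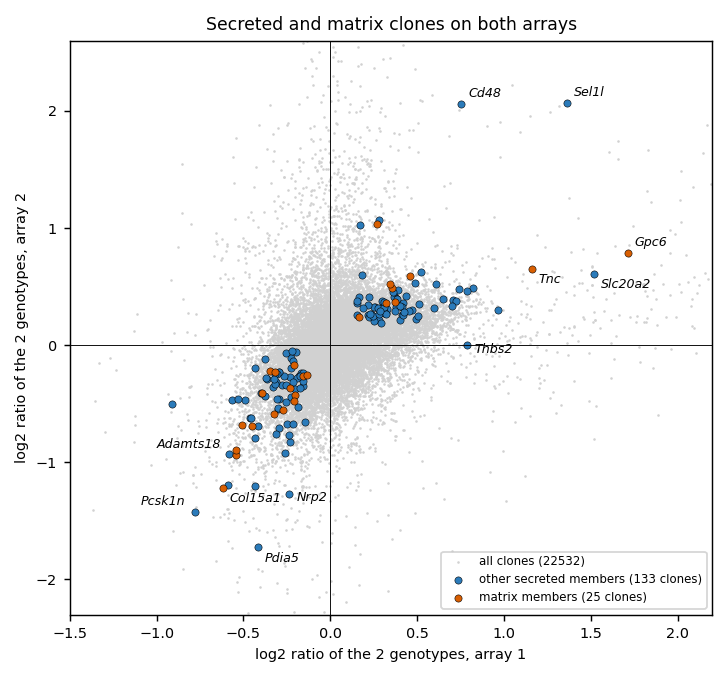
Log2 ratio of the genotypes on array 1 (x axis) and array 2 (y axis) for all clones in grey (the most extreme lie outside the axes), the 133 clones of soluble or surface members in blue and the 25 clones of matrix members in orange. Most members lie away from 0 on either side, since the authors had listed them, and Sel1l and Cd48 stand out on the positive side and Pcsk1n and Pdia5 on the negative side.

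Of the 22 matrix genes, 7 lay on the positive side and 15 on the negative side (31.8% positive), with a median log2 ratio of -0.28. Over all 2319 named genes measured on both arrays, 1120 were positive (48.3%) and the median was -0.11. Listed clones stay away from 0, so a median of this kind takes the side that holds more genes and does not measure an effect. The matrix median was -0.16 once the median of all clones in the same block of clone numbers (59 consecutive blocks of equal width) was subtracted, and the counts of 7 and 15 were the same.

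Collagens, the chains of the triple-helical fibres and networks of the matrix, were 4 negative and 1 positive. They are the 5 named of 38 collagen genes on the list compiled for this comparison. Col15a1, the chain of a basement membrane collagen around vessels and muscle, lay at -0.62 on array 1 and -1.22 on array 2, which gives a mean of -0.92 ± 0.42 (SD, n = 2), or 1.89-fold. This was the matrix member farthest out on the negative side. The chains of the fibrils were closer to 0. Col1a2, of the main fibrillar collagen, lay at -0.21 and -0.17, and Col5a2, of the collagen that helps to start such fibrils, at -0.35 and -0.22. Col6a2, of the beaded microfibrils next to cells, lay at -0.21 and -0.47. Col12a1, whose product binds to fibril surfaces, was the exception with 0.27 on array 1 and 1.03 on array 2, so its mean of 0.65 ± 0.54 (SD, n = 2) rests mainly on array 2.

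Matrix glycoproteins and fibre proteins fell on both sides, 4 positive and 5 negative of 9. Tnc, tenascin C, an adhesion-modulating glycoprotein of developing and injured tissue, had 1.16 on array 1 and 0.65 on array 2 (mean 0.91 ± 0.36, SD, n = 2, a 1.88-fold difference). Spp1, osteopontin, a secreted ligand of integrins, had 0.46 and 0.59. Lamc1, the laminin gamma chain found in most basement membranes, lay at 0.34 and 0.52, and Fbn2, fibrillin of developing elastic fibres, at 0.35 and 0.49. These 4 positive genes were each above 0.3 on both arrays, and Tnc alone was past 1.5-fold on both.

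On the negative side, Fn1, fibronectin, the adhesive glycoprotein that cells assemble into fibrils through integrins, lay at -0.39 and -0.41, nearly the same on both arrays (mean -0.40 ± 0.011, SD, n = 2). Ntn1, netrin, a laminin-related guidance protein that also acts in epithelial branching, had -0.51 and -0.68, the lowest mean in this group at -0.59 ± 0.12. Spon1, F-spondin, lay at -0.27 and -0.56. Ecm1, a glycoprotein that binds other matrix components, lay at -0.23 and -0.37, and Emilin3, of the elastin interface family, at -0.32 and -0.23. Fn1 and Lamc1, both ligands of integrins, thus lay on opposite sides.

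**Figure D2:**
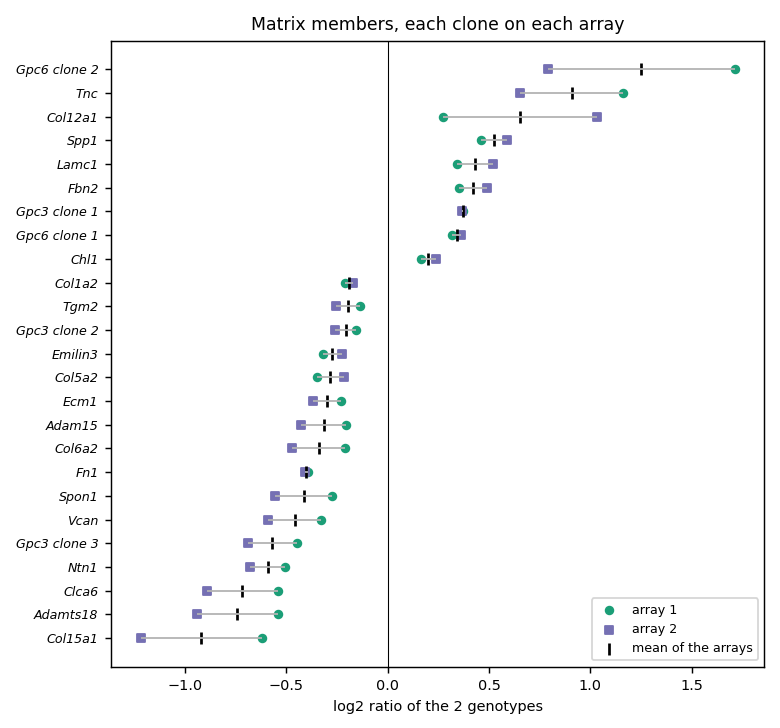
Log2 ratio of the genotypes (x axis) for each of the 25 clones of matrix genes (rows), with a circle for array 1, a square for array 2 and a tick for the mean. All 25 clones have the same sign on both arrays, the clones of Gpc3 lie on both sides of 0, and Col12a1 and the upper Gpc6 clone show wide gaps between the arrays.

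Promoter sequence from RefSeq (build GRCm38.p6), 250 bases before to 50 after the gene start, was matched for 101 of 139 member genes, giving 127 windows. The motif TATAAA, the spelling of a TATA box, was searched on both strands anywhere in the window. It was in 9 of these windows (7.09%), beside 13.6% of all 32851 windows. Counted by genes, it was in 8 of 101 members (7.92%), beside 15.7% of all 27025 genes. Among the 11 matrix genes with a window it was in 3, Tnc, Spp1 and Ecm1, too few to read as a trait of matrix genes. These 3 are shown here because they hold the motif and lie on both sides. In each, capitals mark TATAAA, which starts 126 bases before the Tnc start, 211 before the Spp1 start and 27 before the Ecm1 start. A match describes the letters only, and no distance from the start was required, so it does not show a working TATA box.
Tnc, chr4:64046966-64047265, minus strand: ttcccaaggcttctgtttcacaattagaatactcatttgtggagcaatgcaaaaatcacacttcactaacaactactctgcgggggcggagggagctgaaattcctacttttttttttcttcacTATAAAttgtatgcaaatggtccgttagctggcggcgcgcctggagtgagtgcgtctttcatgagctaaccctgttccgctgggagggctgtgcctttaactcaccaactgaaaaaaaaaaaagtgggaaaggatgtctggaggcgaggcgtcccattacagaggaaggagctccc
Spp1, chr5:104434861-104435160, plus strand: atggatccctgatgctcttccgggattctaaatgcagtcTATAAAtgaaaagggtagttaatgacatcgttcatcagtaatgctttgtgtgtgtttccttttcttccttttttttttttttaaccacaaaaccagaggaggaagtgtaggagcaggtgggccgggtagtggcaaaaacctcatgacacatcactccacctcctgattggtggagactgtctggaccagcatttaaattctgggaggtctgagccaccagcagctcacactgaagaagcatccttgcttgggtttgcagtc
Ecm1, chr3:95739520-95739819, minus strand: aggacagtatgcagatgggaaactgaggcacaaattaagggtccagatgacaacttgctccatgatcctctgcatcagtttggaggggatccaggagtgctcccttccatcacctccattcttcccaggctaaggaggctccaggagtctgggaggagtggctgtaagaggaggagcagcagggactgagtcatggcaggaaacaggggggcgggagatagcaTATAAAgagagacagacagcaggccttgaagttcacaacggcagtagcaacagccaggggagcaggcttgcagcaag

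Proteoglycans, core proteins that carry long sugar chains, were represented by 3 genes. Vcan, versican, the large hyaluronan-binding proteoglycan of soft matrix, lay at -0.33 on array 1 and -0.59 on array 2. Gpc6, a glypican that is tied to the cell surface by a lipid anchor, had 1 clone at 0.32 and 0.36 and another at 1.71 and 0.79. Both Gpc6 clones were positive, but their means of 0.34 and 1.25 differed widely, and the larger one carried an SD of 0.65 over the arrays. Gpc3, the glypican whose loss causes overgrowth in mice, had 3 listed clones that did not agree. These lay at 0.37 and 0.37, at -0.16 and -0.26, and at -0.45 and -0.69, so the gene's mean of -0.14 stands for no single clone.

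Matrix enzymes and the remaining matrix members were 4 negative and 1 positive. Adamts18, a secreted metalloprotease of the ADAMTS family, lay at -0.54 and -0.94, a mean of -0.74 ± 0.28 (SD, n = 2). Clca6, named Clca4a today and of the calcium-activated chloride channel regulator family, had -0.54 and -0.89. Adam15, a membrane-anchored metalloprotease, lay at -0.20 and -0.43, and Tgm2, the transglutaminase that crosslinks matrix proteins, at -0.14 and -0.26. Chl1, a neural adhesion molecule of the L1 family, was positive at 0.17 and 0.24. Adamts18 and Clca6 differed 1.67-fold and 1.64-fold on average, while Tgm2 and Chl1 were among the smallest differences of all matrix members.

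Among the soluble members, 6 act on or bind the matrix, and of these 2 were positive and 4 negative. Bmp1, the protease that cleaves the C-propeptides of fibrillar procollagens, had 0.79 on array 1 and 0.46 on array 2 (mean 0.62 ± 0.23, SD, n = 2). Pcolce, which enhances that cleavage, lay on the other side in both of its clones, at -0.19 and -0.28 and at -0.22 and -0.31. The enzyme and its enhancer were on opposite sides on both arrays, and so were the medians of all clones in their blocks. With block medians subtracted Bmp1 lay at 0.44 and Pcolce at -0.13, and the part of clone position was not tested. Thbs2, a thrombospondin that limits vessel growth, was the 1 member clone with opposite signs, at 0.79 on array 1 and -0.00072 on array 2. The fold change of Thbs2 in the authors' deposited table, 1.76, is larger than the 1.31-fold of the mean ratio. It is 1 of 4 member clones whose log2 fold in the authors' deposited table differs from the mean by over 0.2. The others are Mest (-0.60 there and -0.20 as the mean), Gpr56 (-0.36 and -0.13) and the first Pvrl3 clone (0.36 and 0.60). Abi3bp, a collagen-binding protein, lay at -0.49 and -0.46, and Nov, a matricellular protein named Ccn3 today, at -0.31 and -0.46. Tnfaip6, a hyaluronan-binding protein of inflammation, lay at -0.22 and -0.13.

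The wider matrix lists, compiled with earlier results of these data known, added few genes outside the members. On the list of crosslinking and collagen processing, 4 of 21 genes were named, 1 positive and 3 negative. The further one was Leprel1, a prolyl 3-hydroxylase of collagen, at -0.39 and -0.27. Of 24 matrix receptors 3 were named, Itga5 and Dag1 on the negative side and Itga4 on the positive side. Itga5, the alpha chain of the main fibronectin receptor, lay at -0.18 and -0.26, the same side as Fn1. Dag1, dystroglycan, a receptor of laminins, lay at -0.31 and -0.30, the side opposite to Lamc1. Itga4, an integrin chain of leukocytes that binds Vcam1 and fibronectin, lay at 2.30 and 1.31, far beyond the other members of these lists. The elastic fibre list added Mmrn1, a multimerin of platelets and endothelium, at 0.31 and 0.54. No gene on the lists of cytokines and chemokines (57 genes), plasma carriers (30) or surfactant and airway secretion (21) was among the named clones. The lists are not complete, and the cytokine Il17d, a member given below, is not on the first.

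Secreted proteases, inhibitors and processing enzymes of peptides were 3 positive and 4 negative of 7. Pcsk1n, the inhibitor of prohormone convertase 1 that is made by neuroendocrine cells, had -0.78 and -1.43, the lowest mean of all members at -1.10 ± 0.46 (SD, n = 2, a 2.15-fold difference). Other members of the prohormone pathway lay differently. Cpe, the carboxypeptidase that trims prohormones, had 0.24 and 0.27. Pam, which amidates peptide hormones, had 1 clone at -0.23 and -0.44 and another at 0.37 and 0.46. Ptprn, a membrane protein of dense-core vesicles, lay at 0.44 and 0.42. The neuroendocrine members thus did not share a side.

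Of the coagulation and fibrinolysis members, Plat, tissue plasminogen activator, had 0.39 and 0.47. Tfpi, the inhibitor of the tissue factor pathway, lay at -0.32 and -0.25. Spint2, a Kunitz inhibitor on epithelia, lay at -0.31 and -0.24, and Prss35, a serine protease-like protein, at -0.33 and -0.35. The plasma protease inhibitor A2m, a further gene of the inhibitor list, lay at 0.43 and 0.31. Proc, protein C of the coagulation list, lay at -0.29 and -0.39, both outside the members.

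Growth factors, hormones and other ligands were 7 positive and 8 negative of 15. Igfbp2, an insulin-like growth factor binding protein, lay lowest at -0.57 on array 1 and -0.47 on array 2 (mean -0.52 ± 0.068, SD, n = 2). Wnt4, a Wnt ligand with a part in lung branching, had -0.30 and -0.54, and Bmp2, a ligand of the BMP pathway, had -0.37 and -0.28. Agt, angiotensinogen, the precursor of the angiotensins, lay at -0.36 and -0.29. These 4 were below -0.25 on both arrays. On the positive side, Gas6, the ligand of the TAM receptor kinases, had 0.32 and 0.27, the cytokine Il17d had 0.40 and 0.22, and Ereg, epiregulin, a ligand of the EGF receptor, had 0.16 and 0.36. Hmgb1, a chromatin protein that cells can release as an alarm signal, lay at 0.33 and 0.31, and Igj, the joining chain of polymeric antibodies (Jchain today), at 0.31 and 0.27. On the list of 30 TGF-beta and BMP family genes and antagonists Bmp2 was the only one named, and on the list of 30 Wnt and Hedgehog genes Wnt4 was.

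Receptors and co-receptors were 10 positive and 8 negative of 18. Npr3, the clearance receptor of natriuretic peptides, had 0.97 and 0.30, the highest mean in this group at 0.63 ± 0.47 (SD, n = 2). Tgfbr3, betaglycan, the co-receptor that presents TGF-beta, lay at 0.40 and 0.33, and Crim1, a membrane protein that binds BMPs, at 0.50 and 0.23. The Hedgehog receptor Ptch1 was positive in both of its clones, at 0.43 and 0.28 and at 0.32 and 0.27. The cytokine receptors of the interleukin 6 family were split. Il6st, its shared chain, had 0.38 and 0.39, and Osmr, the oncostatin M receptor, had 0.50 and 0.25, whereas Il31ra had -0.26 and -0.48.

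Of the other receptors, Nrp2, neuropilin, a receptor of semaphorins and of VEGF-C that marks lymphatic vessels, lay at -0.24 and -1.27, a wide gap between the arrays. Robo2, a receptor of Slit proteins, lay at -0.53 and -0.46, and Sema5b, a membrane semaphorin, at -0.24 and -0.77. Of the ephrins, which are ligands of the Eph receptors, Efna2 lay at -0.17 and -0.24, and Efna5 had 1 clone at 0.39 and 0.34 and another at -0.26 and -0.34. On the list of 12 guidance factors, which does not hold Sema5b, Efna2 or Efna5, Ntn1 was the only gene named.

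**Figure D3:**
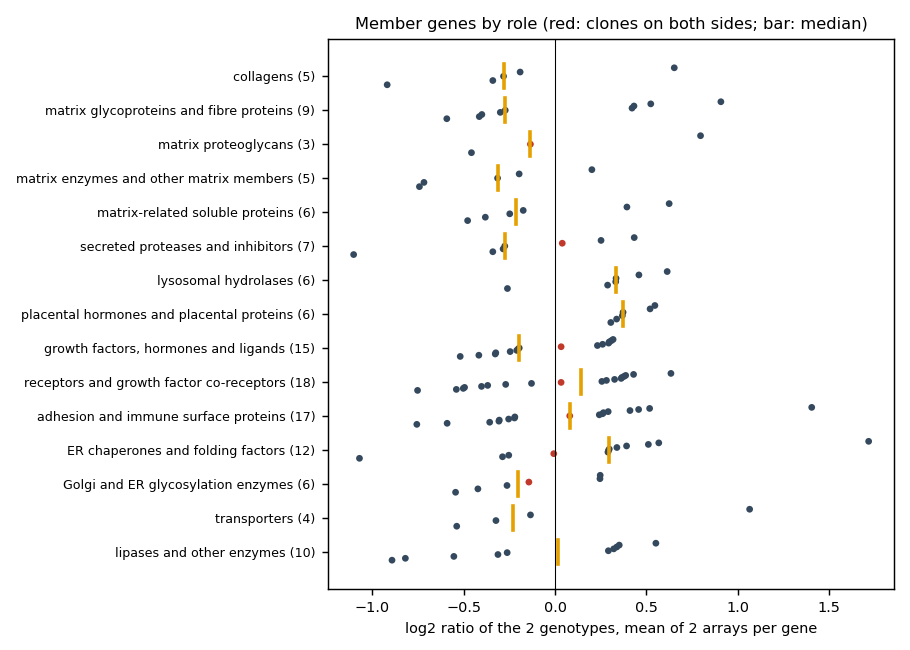
Mean log2 ratio over the 2 arrays (x axis) of each member gene by role (rows, number of genes in brackets), with the median of each role as a bar and genes whose clones lie on both sides in red. All 6 placental members and 5 of 6 lysosomal members are positive, beside 48.3% of all named genes. Negative are 4 of 5 collagens, 4 of 5 matrix enzymes and other matrix members, and 3 of 4 transporters. Every role but the placental one holds genes on both sides, and the roles were set with the ratios in view. The ER row also holds the calcium-binding proteins Casq2, Sdf4 and Hrc. Members with other roles or a conflicting name are not drawn.

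Chaperones, folding factors and other proteins of the ER and related compartments were 8 positive and 4 negative of 12 (median 0.29). They carry the extracellular term although they act inside the cell. The 12 include Casq2 (mean 0.29), Sdf4 (0.29) and Hrc (-0.25), which are calcium-binding proteins and not folding factors. Sel1l, the adaptor of the ubiquitin ligase that clears misfolded proteins from the ER, had 1.36 on array 1 and 2.07 on array 2. Its mean of 1.72 ± 0.50 (SD, n = 2, a 3.28-fold difference) was the largest of all members, with a limma adjusted p of 0.349. Hyou1, a large chaperone of the ER, had 0.49 and 0.53, and Hsp90b1, the ER form of Hsp90, had 0.42 and 0.36. Txndc4 (Erp44 today), which holds back unassembled secretory proteins, had 0.31 and 0.37, and Tor1a, torsin A, had 0.61 and 0.52. These 5 were positive on both arrays. With block medians subtracted, Hyou1 lay at 0.51 and Tor1a at 0.49, whereas Hsp90b1 and Txndc4, which lie in the first 7 blocks, lay at 0.24 and 0.21, and the median of the 12 genes was 0.18.

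Other ER members lay on the negative side. Pdia5, a disulfide isomerase, lay at -0.42 and -1.72, the widest gap between the arrays of any member (SD 0.92). Kdelr1, the receptor that returns escaped chaperones to the ER, lay at -0.20 and -0.37. Canx, calnexin, a lectin chaperone of glycoproteins, had 1 clone at 0.36 and 0.41 and another at -0.40 and -0.40. Its mean of -0.0075 placed it among the 4 negative genes, although its clones lay on both sides. The ER stress response element is CCAAT and CCACG with 9 bases of any kind between them, and was searched on both strands. It was in the promoter windows of Hsp90b1 and Canx, 2 of 127 member windows (1.57%), beside 0.119% of all 32851 windows. Of the 10 genes of this ER group with a window, these 2 held it. So few windows cannot be read as a trait of secreted and matrix genes. The element contains the shorter CCAAT box, which was in 37.4% of all windows and in 31.5% of member windows. The search also covered the GC box (GGGCGG), in 35.7% of all windows and 57.5% of member windows. The AP-1 site (TGANTCA, N for any base) was in 7.81% and 9.45%. None of these shares was tested. The sequences of Hsp90b1 and Canx are shown because no other member window held the ER stress response element. Capitals mark it, with 2 matches in Hsp90b1, 212 bases before the gene start on the gene's strand and 107 before on the opposite strand, and 1 in Canx, 145 before.
Hsp90b1, chr10:86705395-86705694, minus strand: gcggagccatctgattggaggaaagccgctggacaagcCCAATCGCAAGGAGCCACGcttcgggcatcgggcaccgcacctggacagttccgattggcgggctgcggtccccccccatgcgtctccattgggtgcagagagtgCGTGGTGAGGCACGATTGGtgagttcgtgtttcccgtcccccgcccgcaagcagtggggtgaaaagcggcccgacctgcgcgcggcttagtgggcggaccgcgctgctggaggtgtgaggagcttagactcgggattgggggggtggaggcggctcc
Canx, chr11:50325624-50325923, minus strand: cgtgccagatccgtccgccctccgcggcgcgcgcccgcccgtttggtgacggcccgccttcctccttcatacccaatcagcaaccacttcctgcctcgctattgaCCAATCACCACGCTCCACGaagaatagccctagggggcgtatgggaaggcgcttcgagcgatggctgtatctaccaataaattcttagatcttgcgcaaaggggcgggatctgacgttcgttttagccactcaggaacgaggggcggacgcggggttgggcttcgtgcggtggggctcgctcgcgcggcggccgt

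Lysosomal hydrolases and related enzymes, some of which are also secreted, were 5 positive and 1 negative of 6 (median 0.33). Pcyox1, which degrades prenylated cysteines, had 0.74 and 0.48 (mean 0.61 ± 0.18, SD, n = 2). Smpdl3b, a sphingomyelinase-like phosphodiesterase, had 0.60 and 0.32, and Gla, alpha-galactosidase, 0.37 and 0.30. The cysteine protease Ctsl, cathepsin L, was positive in both clones, at 0.51 and 0.35 and at 0.25 and 0.21. The symbol 1300012G16Rik, named Plbd2 today, was the negative one at -0.30 and -0.23. Cathepsin D (Ctsd), an aspartic protease of lysosomes outside the members, was negative in each of 3 clones, with means of -0.26, -0.34 and -0.35. Pcyox1, Smpdl3b, Aga, Gla and both Ctsl clones lie in blocks 3, 4, 7 and 22, where most named clones were positive. The clones of 1300012G16Rik and Ctsd lie in blocks 33, 35 and 39, where most were negative. With block medians subtracted the 6 genes were still 5 positive and 1 negative. Their median was then 0.20 and Ctsl lay at 0.18, and the part of clone position in these values was not tested.

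Enzymes that build sugar chains on secreted proteins were 2 positive and 4 negative of 6. Ext1, which polymerises heparan sulfate, lay at 0.24 and 0.25, and Mfng, a fringe enzyme that modifies Notch, at 0.23 and 0.27. Fut8, which adds the core fucose, lay at -0.30 and -0.55, and Galnt1, which starts O-linked chains, at -0.27 and -0.26. Krtcap2, a subunit of the oligosaccharyltransferase, lay lowest at -0.46 and -0.63. Among other enzymes, Ptgs1, the constitutive cyclooxygenase of prostaglandin synthesis, had -0.59 and -1.20 (mean -0.89 ± 0.43, SD, n = 2), and Sts, steroid sulfatase, had -0.44 and -1.20. Gda, guanine deaminase, lay at -0.42 and -0.69. Liph, a phosphatidic acid lipase, lay at 0.72 and 0.38 on the other side.

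Adhesion and immune surface proteins were 9 positive and 8 negative of 17. Cd48, a surface protein of lymphocytes and other leukocytes, had 0.75 on array 1 and 2.06 on array 2 (mean 1.40 ± 0.92, SD, n = 2). Vcam1, the endothelial ligand of the Itga4 integrin, had 0.70 and 0.33, and Cd22, a lectin of B cells, had 0.25 and 0.33. None of the 5 fixed leukocyte markers or the 6 lymphocyte and thymus markers was named, so the part of these cells in the Cd48 and Itga4 values was not tested. In whole tissue, fewer cells of a type and less RNA per cell cannot be told apart. The Cd48 and Itga4 clones have close clone numbers in block 58. The median of all clones there was 0.18, and 40 of 51 named listed clones were positive. The part of clone position in both values was not tested either. Pcdh7, a protocadherin, lay lowest in this group at -0.58 and -0.93, and Sgce, a sarcoglycan, lay at -0.26 and -0.92. Of the nectins, Pvrl1 had 0.36 and 0.46, while Pvrl3 had 1 clone at 0.17 and 1.02 and another at 0.31 and 0.33.

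Among the transporters, Slc20a2, a sodium-phosphate cotransporter, had 1.52 and 0.61 (mean 1.06 ± 0.64, SD, n = 2), whereas the zinc transporters Slc30a5 and Slc39a7 lay at -0.32 and -0.76 and at -0.32 and -0.33. Of the members with other roles, 2610507B11Rik lay at -0.91 and -0.50. The symbol 2610204L23Rik, named Ccdc47 today, had 0.82 and 0.49, and Pdzk1ip1, a small membrane protein of epithelia, had 0.52 and 0.62. Nptxr, the neuronal pentraxin receptor, lay at -0.46 and -0.62. The remaining members not named here had mean ratios between -0.50 and 0.39. For 3 clones, with the symbols Ahr, Atf7 and 4632428N05Rik, the gene ID names another gene, and these are left without a gene name.

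Hormones and proteases of the placenta formed a group that lay on the positive side throughout, 6 of 6 genes. Csh1, placental lactogen (Prl3d1 today), had 0.71 on array 1 and 0.38 on array 2. The prolactin family members Dtprp (Prl8a2 today) and Prlpl (Prl5a1 today) had 0.45 and 0.29 and 0.41 and 0.32. Prlpa (Prl4a1 today) had 1 clone at 0.30 and 0.37 and another at 0.28 and 0.27. Plac1, a surface protein of trophoblast, had 0.65 and 0.39, and Cts8, a placental cathepsin, had 0.41 and 0.26. All 7 clones of these genes have low clone numbers and lie in blocks 2 to 6. The median of all clones in blocks 1 to 10 was itself positive, from 0.11 to 0.26 by block. Of the named listed clones in these blocks 86.4% were positive, and of the member clones 28 of 33 (84.8%). With block medians subtracted the 6 genes were still positive, with a median of 0.21 beside 0.37 as deposited, and Prlpa then lay at 0.059. Whether clone position takes part in the placental values was not tested.

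The share of positive clones differed between blocks, with no steady trend. In blocks 11 to 20 and 21 to 30, 59.1% and 62.5% of member clones were positive, beside 56.6% and 59.3% of named listed clones. In blocks 31 to 40, where block medians ran from -0.14 to 0.077, 3 of 28 member clones (10.7%) and 12.6% of named listed clones were positive. In blocks 41 to 50 and 51 to 59 these shares were 41.4% and 36.4% for members, and 33.0% and 37.9% for named listed clones. With block medians subtracted, 1 of the 158 member clones changed side, that of Gpr56, with 0.016 beside -0.13 as deposited. Counted by genes, 2700097O09Rik also changed side, with 0.038 beside -0.035. Of the 142 genes, 101 kept a mean within 1.5 times of the deposited one, 35 came nearer to 0 than that and 4 lay farther from 0. Block medians ran from -0.16 to 0.26, too small to move the largest ratios by 1.5 times. That these ratios stayed within that factor follows from their size and is no test of clone position. With block medians subtracted they were 1.69 for Sel1l, 1.26 for Cd48, 0.86 for Tnc, -0.90 for Col15a1 and -1.09 for Pcsk1n. Some of these stood beside other large ratios at close clone numbers, Sel1l with Slc20a2 in block 57 and Cd48 with Itga4 in block 58. Col15a1 lay in block 47 with Ptgs1 and Nrp2, where 4 of 9 member clones were positive. A further member clone of block 57, of Eltd1, was negative. A block median does not remove an effect on fewer clones than a block, and such an effect was not tested. A shift of a given size changes a small ratio by a larger factor, so the genes past 1.5 times had smaller ratios. Of the matrix genes, 5 of 22 came nearer to 0 by more than that factor. These were Vcan at -0.30, Spon1 at -0.25, Emilin3 at -0.13, Col1a2 at -0.11 and Tgm2 at -0.062. Of the ligands, Bmp2 and Agt each lay at -0.18, Gas6 and Il17d each at 0.19 and Hmgb1 at 0.17. The Kunitz inhibitor Tfpi lay at -0.17, the co-receptor Crim1 at 0.12 and Sema5b at -0.33. Itga5 and Tnfaip6 lay farther out, at -0.34 and -0.29.

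**Figure D4:**
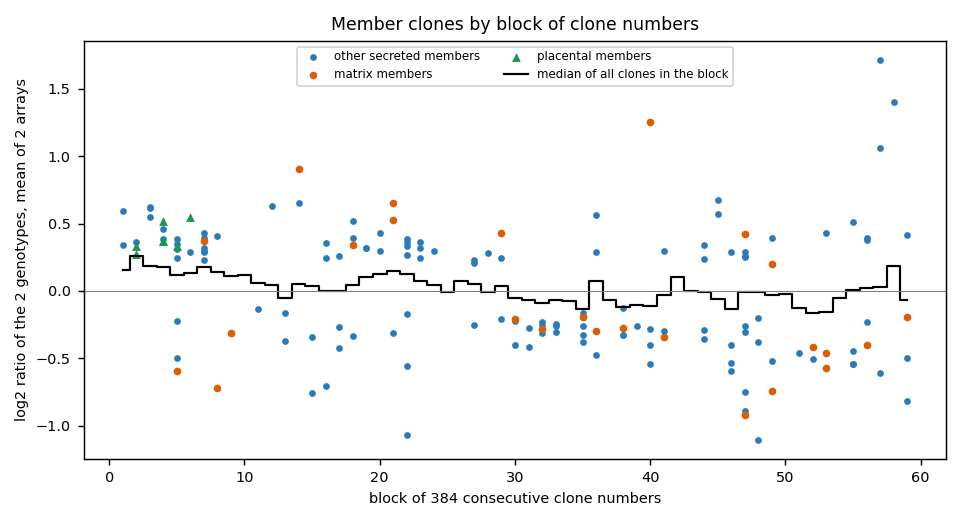
Mean log2 ratio over the 2 arrays (y axis) of each member clone by block of consecutive clone numbers (x axis), with placental members as triangles and the median of all clones in the block as a black line. Most members in blocks 1 to 10 are positive and most in blocks 31 to 40 are negative, and the block medians lie above and below 0 there.

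For 15 member genes the authors' tables hold more than 1 clone, which gives a check within a gene. In 8 of the 15 (53.3%) the clones lay on both sides, namely Gpc3, Canx, Efna5, Eltd1, Kirrel3, Pam, 2700097O09Rik and C530043G21Rik (Fam20b today). Among the other named genes with several listed clones this was so for 105 of 210 (50%), so the members were like the rest. With 2 clones per gene, as in 14 of the 15, sides unrelated to the gene would give about 50%. The listed clones of a member gene thus showed no agreement on a side beyond that level. Eltd1, an adhesion receptor of endothelium (Adgrl4 today), had the widest disagreement among genes with 2 clones, at 0.28 and 1.07 against -0.44 and -0.79. Kirrel3 had 0.18 and 0.60 against -0.16 and -0.31. For 2700097O09Rik the values were 0.38 and 0.40 against -0.25 and -0.67, and for C530043G21Rik 0.28 and 0.21 against -0.23 and -0.83. The count of 8 genes was the same with block medians subtracted. In the 7 genes Gpc6, Pvrl3, Ctsl, Timd2, Prlpa, Ptch1 and Pcolce all clones shared a side. Both Ctsl clones lie in block 7 and both Prlpa clones in block 2, where most named listed clones were positive. The Pcolce clones lie in blocks 32 and 35, where most were negative. The larger Gpc6 clone was positive in block 40, where most were negative. The part of clone position in this agreement was not tested. For the 127 member genes with 1 listed clone no such check exists.

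**Figure D5:**
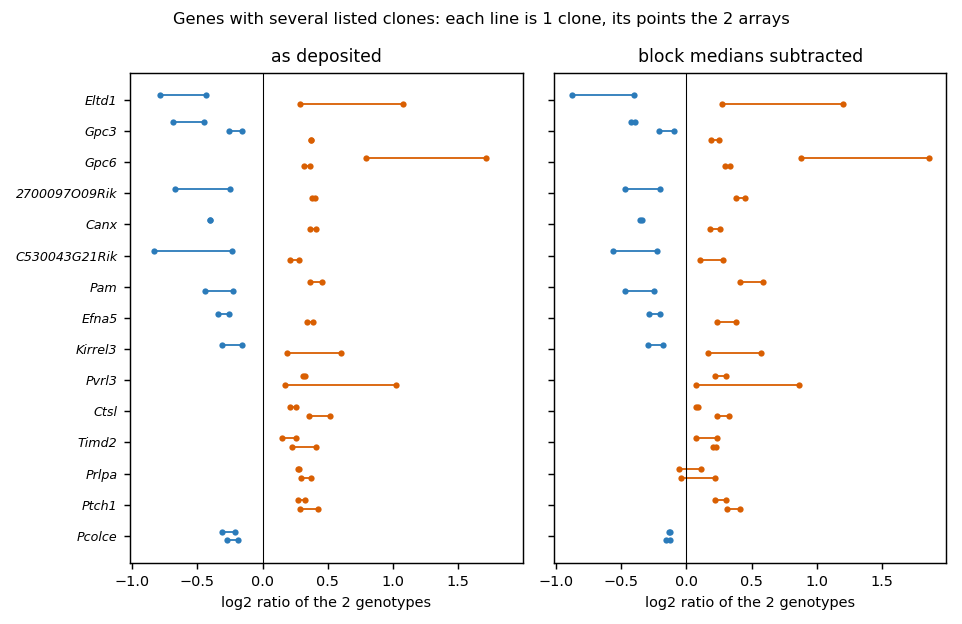
Log2 ratio of the genotypes (x axis) for the 15 member genes with more than 1 listed clone (rows), as deposited on the left and with block medians subtracted on the right. Each line is 1 clone with its 2 arrays as points, orange for a positive and blue for a negative mean, and 8 genes have clones on both sides in both panels.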

How the data were processed

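RNA of Bclaf1 knockout and wild-type lung was hybridised to 2 two-colour spotted cDNA arrays, labelled with Cy3 and Cy5, and scanned on an Agilent G2505B scanner, per the labels. The deposited value table holds 1 log2 ratio per clone and array. Its background correction, normalization and numerator are not stated. The log base comes from the values themselves (regressed on log2 of the fold change in the authors' tables, slope 0.974 and Pearson r 0.990 across 3496 clones), and the array medians were 0.0068 and 0.0041. The authors also deposited a linear fold change with its p-value, per the file headers, for 1510 up-regulated and 1999 down-regulated clones. How they were selected is not stated.

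Left out were 3 control features, and 22532 of 22656 clones had both values. The test against 0 used limma (version 3.58.1, R version 4.3.3; intercept, eBayes, two-sided, Benjamini-Hochberg, threshold 0.05). The script was tested on simulated data. Blocks are runs of consecutive clone numbers of equal width. A gene's value is the mean of its listed clones, and SDs are over arrays. Current names came through gene IDs from a RefSeq table (GRCm38.p6). The rule named all matrix members, 12 soluble genes per side by the smaller ratio, genes with several clones and members of the role lists, 68 genes in all. Others named in the text were chosen after their values were seen. Members and lists were chosen with earlier results of these data known, and role groups were set with the ratios in view.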

Additional observations from a re-analysis of the deposited data

How the results depend on the processing

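The limma count after adjustment was 0 member clones with arrays centred, scaled to the same median absolute deviation, quantile normalized, with block medians subtracted and with robust eBayes. At an unadjusted p under 0.05 it was 99. The ordinary test also gave 0 after adjustment, but on 2 arrays it could hardly give another count. Past 1.5-fold on both arrays, the counts of 5 positive and 3 negative clones were 3 and 7 with equal median absolute deviations, 4 and 8 after quantile normalization, and 4 and 6 with block medians subtracted. Past 2-fold they were 1 and 0. On a single array they ran from 11 to 16 positive and from 4 to 24 negative clones. The matrix median of -0.28 was -0.30 after quantile normalization, -0.16 with block medians subtracted and from -0.24 to -0.21 on single arrays. The count of 7 positive matrix genes was the same under these settings, and counted by clones it was 9 of 25. The median of the soluble members, 0.036, was 0.24 with clones counted in place of genes and, in alternatives chosen after seeing the data, 0.24 without genes whose clones lay on both sides and 0.26 without integral membrane proteins (32 of 57 positive, beside 62 of 120). It follows the side with more members.

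Of 68 named genes, 63 kept their sign under all 7 alternatives tried. Their sizes were less stable: with block medians subtracted, 49 of the 68 moved by less than the SD between arrays, 18 by more and 1 turned sign. Tgm2, Emilin3, Bmp2, Pcolce, Ctsl, Tfpi and Prlpa were among the genes that moved by over 1.5 times. The exceptions in sign were 4 genes with clones on both sides, and Thbs2. Eltd1 was -0.0080 after quantile normalization and -0.011 from the authors' deposited table, against 0.033. Canx was 0.024 from the authors' deposited table, against -0.0075. The symbol 2700097O09Rik was 0.038 with block medians subtracted and 0.0023 from the authors' deposited table, against -0.035. On single arrays Canx ran from -0.018 to 0.0035, Eltd1 from -0.077 to 0.14, 2700097O09Rik from -0.13 to 0.065, C530043G21Rik from -0.31 to 0.022 and Thbs2 from -0.00072 to 0.79. No paired analysis was possible because each array already holds 1 RNA pair and gives 1 ratio. Signal over background was not used here, so no filter on dim spots was run.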
